A study of Arabidopsis thaliana with 2 samples.

Results

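The 44 genes described here are nuclear genes whose proteins work in photosynthesis: Rubisco small subunits with Rubisco activase, light-harvesting (antenna) proteins of both photosystems, photosystem subunits, electron carriers, carbonic anhydrases and Calvin cycle enzymes. They were taken by a list of locus identifiers from the 36917 gene identifiers of the count tables, 36632 of which are nuclear. The data are snRNA-seq of inflorescences of Arabidopsis plants that carried pAP1:AP1-GR in the ap1-1 cal-1 background (ecotype Ler). In these plants the double mutant inflorescence forms meristem without flowers until dexamethasone (DEX) activates AP1-GR, a fusion of AP1 and the glucocorticoid receptor driven by the AP1 promoter, and flowers then start together. Both libraries were DEX-induced and there was no uninduced sample. The day 4 library was labelled as stage 5 of flower development and the day 3 library as stage 4, with 1 library per day made from pooled inflorescences of plants in long days. The treatment text of the labels gave the fourth day for both, and the days used here are those of the sample titles. PCR cycles and the sequencing run also differed between the libraries, so a day and a library cannot be told apart.

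Nuclei were barcodes with at least 1000 detected nuclear genes. The day 4 library held 4545 nuclei with 10202530 nuclear UMIs (unique molecular identifiers, 1 per captured transcript) and the day 3 library held 4397 nuclei with 11083512. The median nucleus had 1805 nuclear UMIs at day 4 and 1842 at day 3, and 6 barcodes occurred in both libraries. Levels are CPM, the UMIs of a gene scaled to counts per 1000000 UMIs of all nuclear genes, and they were compared between genes without correction for length because a 3′ library counts transcripts. With 1 library per day no test was possible, so intervals (95%) cover counting error only, and a gene was counted as higher or lower where it was at least 1.5-fold apart on log2(CPM + 1) with at least 200 UMIs over both sides of the comparison.

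In plants the chloroplast genome encodes the reaction centre cores and the Rubisco large subunit, whereas the genes described here are transcribed in the nucleus and most of their proteins are imported into the plastid. Antenna proteins bind chlorophyll and pass light energy to photosystem I or II, plastocyanin carries electrons between the cytochrome b6f complex and photosystem I, and Rubisco fixes CO2 in the Calvin cycle. Expression of these genes is known to follow plastid differentiation, with high levels in mesophyll and other green tissue and low levels in meristems. Nuclear RNA also holds transcripts that have not left the nucleus, so a level in nuclei is not a level of mature mRNA in the cell.

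Several of these genes are close copies, and the values of copies depend on which reads can be given to a single gene. The coding ends of the copies are shown because the library reads the 3′ end of each transcript. The last 90 coding bases of the RefSeq genes (build TAIR10.1, from Col-0) are printed 5′ to 3′, with capitals at bases that differ from the gene printed first in each family. The LHCB1 genes, which encode the main antenna protein of photosystem II, are printed first.
LHCB1.3: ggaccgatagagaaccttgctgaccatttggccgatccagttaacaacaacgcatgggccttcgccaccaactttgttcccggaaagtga
LHCB1.1: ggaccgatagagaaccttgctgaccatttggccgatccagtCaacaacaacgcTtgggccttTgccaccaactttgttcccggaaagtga
LHCB1.2: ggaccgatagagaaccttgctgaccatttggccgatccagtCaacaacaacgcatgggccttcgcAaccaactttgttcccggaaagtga
LHCB1.4: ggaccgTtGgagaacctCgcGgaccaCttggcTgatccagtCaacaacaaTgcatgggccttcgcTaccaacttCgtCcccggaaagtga
LHCB1.5: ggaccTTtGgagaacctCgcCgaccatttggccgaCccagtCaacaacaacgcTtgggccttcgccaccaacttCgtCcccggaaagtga
The next 3 are tandem copies of the Rubisco small subunit.
RBCS3B: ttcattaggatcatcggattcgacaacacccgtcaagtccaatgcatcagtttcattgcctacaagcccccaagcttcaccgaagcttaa
RBCS1B: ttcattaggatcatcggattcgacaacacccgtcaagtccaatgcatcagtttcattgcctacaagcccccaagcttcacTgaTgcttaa
RBCS2B: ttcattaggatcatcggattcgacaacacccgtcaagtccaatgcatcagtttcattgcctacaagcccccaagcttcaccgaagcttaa
The last 2 are the LHCB2 antenna genes.
LHCB2.2: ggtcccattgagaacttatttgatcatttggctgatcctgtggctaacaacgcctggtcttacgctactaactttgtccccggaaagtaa
LHCB2.1: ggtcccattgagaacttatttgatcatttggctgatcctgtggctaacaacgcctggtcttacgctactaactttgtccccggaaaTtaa

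Within this stretch LHCB1.1 differed from LHCB1.3 at 3 bases and LHCB1.2 at 2, whereas LHCB1.4 differed at 11 and LHCB1.5 at 10. RBCS2B and RBCS3B did not differ there. Over the whole coding sequence the 3 neighbouring LHCB1 genes of chromosome 1 were 95.6 to 96.4% identical and the RBCS copies 96.7 to 97.3%. In the last 500 transcript bases, the share of 50-base windows that also occur in another of the 44 genes was 28.4% for LHCB2.2, 27.5% for RBCS3B, 19.5% for RBCS2B and 18.6% for LHCB1.3. It was 10.2% for LHCB1.2, 7.10% for LHCB1.5 and 4.21% for LHCB1.4, and no such window occurred in the other 37 genes. The study's methods name Cell Ranger with default settings, which leave out reads that match several genes equally well, so the levels of the LHCB1, RBCS and LHCB2 copies and the split between them are uncertain. CA1, PSBP1 and GAPA1 each overlap another RefSeq gene on the same strand, which makes their counts uncertain too.

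The promoters of LHCA4, LHCB1.1, PSAD1 and PETC are shown because these genes passed the 1.5-fold limit in a comparison below, hold a light-response motif and share the window with no other gene. Each window is the 250 bases before the RefSeq gene start (TAIR10.1), printed 5′ to 3′ on the strand of the gene, with capitals at the G-box CACGTG, the I-box GATAAG or the CCA1 site AAAAATCT, searched on both strands. The windows were chr3:17495034-17495283 (minus strand) for LHCA4, chr1:10475970-10476219 (minus) for LHCB1.1, chr4:1230165-1230414 (minus) for PSAD1 and chr4:1439896-1440145 (plus) for PETC.
LHCA4: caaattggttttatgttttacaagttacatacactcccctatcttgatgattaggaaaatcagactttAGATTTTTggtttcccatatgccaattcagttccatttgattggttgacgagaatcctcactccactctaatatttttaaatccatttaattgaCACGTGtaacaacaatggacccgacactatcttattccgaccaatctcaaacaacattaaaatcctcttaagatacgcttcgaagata
LHCB1.1: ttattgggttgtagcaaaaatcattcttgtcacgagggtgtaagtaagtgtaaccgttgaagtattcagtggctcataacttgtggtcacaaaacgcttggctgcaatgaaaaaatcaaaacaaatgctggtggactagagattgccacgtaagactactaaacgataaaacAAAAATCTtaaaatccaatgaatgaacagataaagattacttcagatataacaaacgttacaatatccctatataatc
PSAD1: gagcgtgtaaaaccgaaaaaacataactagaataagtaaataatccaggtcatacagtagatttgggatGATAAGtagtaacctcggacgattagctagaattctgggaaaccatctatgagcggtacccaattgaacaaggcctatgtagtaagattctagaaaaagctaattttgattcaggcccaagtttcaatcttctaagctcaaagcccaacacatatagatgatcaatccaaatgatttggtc
PETC: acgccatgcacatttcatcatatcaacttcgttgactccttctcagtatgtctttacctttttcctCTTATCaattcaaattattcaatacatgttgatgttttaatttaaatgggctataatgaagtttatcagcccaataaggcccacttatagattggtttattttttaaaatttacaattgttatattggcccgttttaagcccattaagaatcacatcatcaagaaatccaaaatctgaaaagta
LHCA4 holds a CCA1 site on its reverse strand from base 69 and a G-box from base 163. A CCA1 site starts at base 173 in LHCB1.1, and an I-box starts at base 70 in PSAD1 and, reversed, at base 67 in PETC. Over all 44 genes, 13 promoters held an I-box (29.5%, against 12.3% of 27399 other promoters), 6 a G-box (13.6%, against 6.47%) and 5 a CCA1 site (11.4%, against 6.68%). None of the 3 Calvin cycle genes and neither carbonic anhydrase gene held any of the 3 motifs in this window. A match describes letters and is no evidence of binding.

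The summed level of the 44 genes was 6688 CPM in day 4 nuclei (68238 UMIs, interval 6638 to 6739) and 7707 CPM in day 3 nuclei (85420 UMIs, 7655 to 7759). In both libraries a few genes carried much of this sum. LHCB1.3 (AT1G29930), the most abundant LHCB1 copy, was at 822 CPM at day 4 and 1013 CPM at day 3. RBCS1A (AT1G67090), the main Rubisco small subunit gene, was at 687 CPM at day 4 and 902 CPM at day 3. These were the most abundant genes of the set in both libraries, and RBCS1A made up 83.5% of the UMIs of the 4 RBCS genes at day 4 and 86.1% at day 3. LHCB1.4 (AT2G34430) was the least abundant, at 2.84 CPM at day 4 and 2.26 CPM at day 3 (29 and 25 UMIs), and was the only gene of the 44 with fewer than 200 UMIs.

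**Figure D1:**
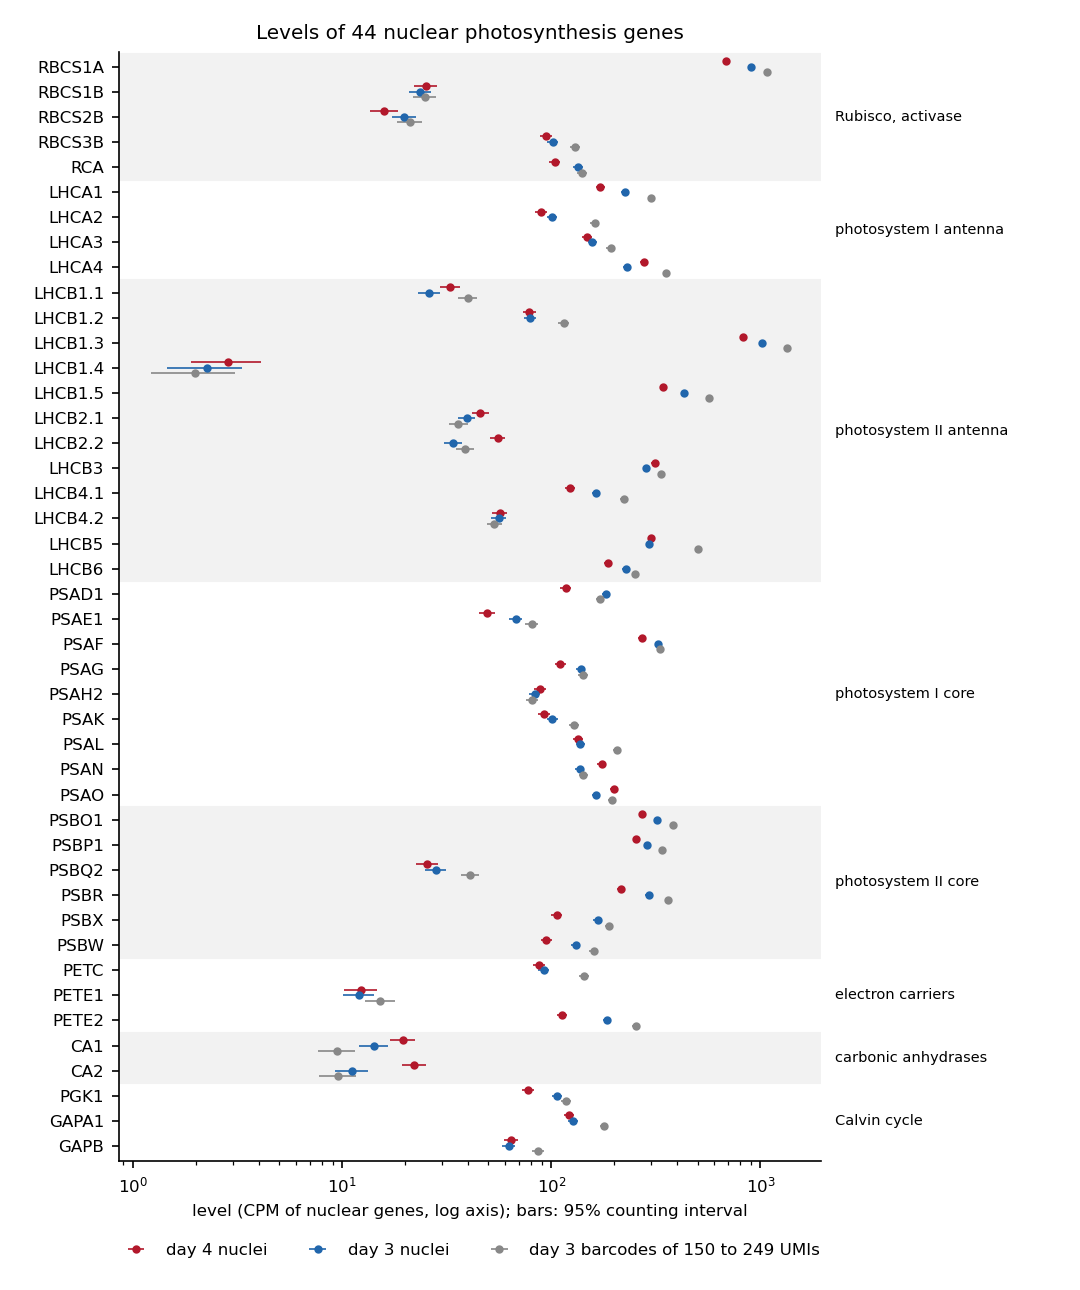
Level of each of the 44 genes (rows, by role) in day 4 nuclei, day 3 nuclei and day 3 barcodes of 150 to below 250 UMIs (points; x axis, CPM on a log scale; 1 library per day, so no error between libraries is shown). LHCB1.3 and RBCS1A lie farthest right in all 3 sets, and LHCB1.4 farthest left.

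Between the days the summed level was lower at day 4 by a log2 ratio of -0.20 (-0.22 to -0.19). Most single genes lay within 1.5-fold. The median gene of the 44 was at -0.12, against 0.08 over all 14740 genes with at least 200 UMIs, and 16 of the 44 lay above 0 and 28 below. Of the 43 genes with at least 200 UMIs, 2 were at least 1.5-fold higher at day 4, beside 4.36% of all genes, and 3 were at least 1.5-fold lower, beside 3.30% of all genes.

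CA2 (AT5G14740), a carbonic anhydrase, was at 22.2 CPM at day 4 (226 UMIs) and 11.1 CPM at day 3 (123 UMIs), a log2 ratio of 0.94 (0.67 to 1.33), with most of its UMIs in 10 nuclei of each library. LHCB2.2 (AT2G05070), a photosystem II antenna gene, was at 55.4 CPM at day 4 (565 UMIs) and 33.9 CPM at day 3 (376 UMIs), a log2 ratio of 0.69 (0.52 to 0.90). These were the genes past the limit at the higher side. PETE2 (AT1G20340), one of 2 plastocyanin genes, was at 112 CPM at day 4 (1147 UMIs) and 184 CPM at day 3 (2044 UMIs), a log2 ratio of -0.71 (-0.82 to -0.61). PSBX (AT2G06520), a small photosystem II subunit, was at 106 CPM at day 4 and 166 CPM at day 3 (1084 and 1843 UMIs), a log2 ratio of -0.64 (-0.76 to -0.54). PSAD1 (AT4G02770), a stromal photosystem I subunit that docks ferredoxin, was at 117 CPM at day 4 and 182 CPM at day 3 (1194 and 2018 UMIs), a log2 ratio of -0.63 (-0.74 to -0.53). PETE1 (AT1G76100), the other plastocyanin gene, was at 12.3 CPM at day 4 and 12 CPM at day 3, a log2 ratio of 0.03 whose interval (-0.33 to 0.39) does not reach that of PETE2. With each nucleus thinned to 1000 UMIs, LHCB2.2 (0.79) was the only gene past both limits, and PSAD1 was at -0.51, PSBX at -0.48 and PETE2 at -0.38. The share of all genes past the limits is not given for thinned nuclei.

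**Figure D2:**
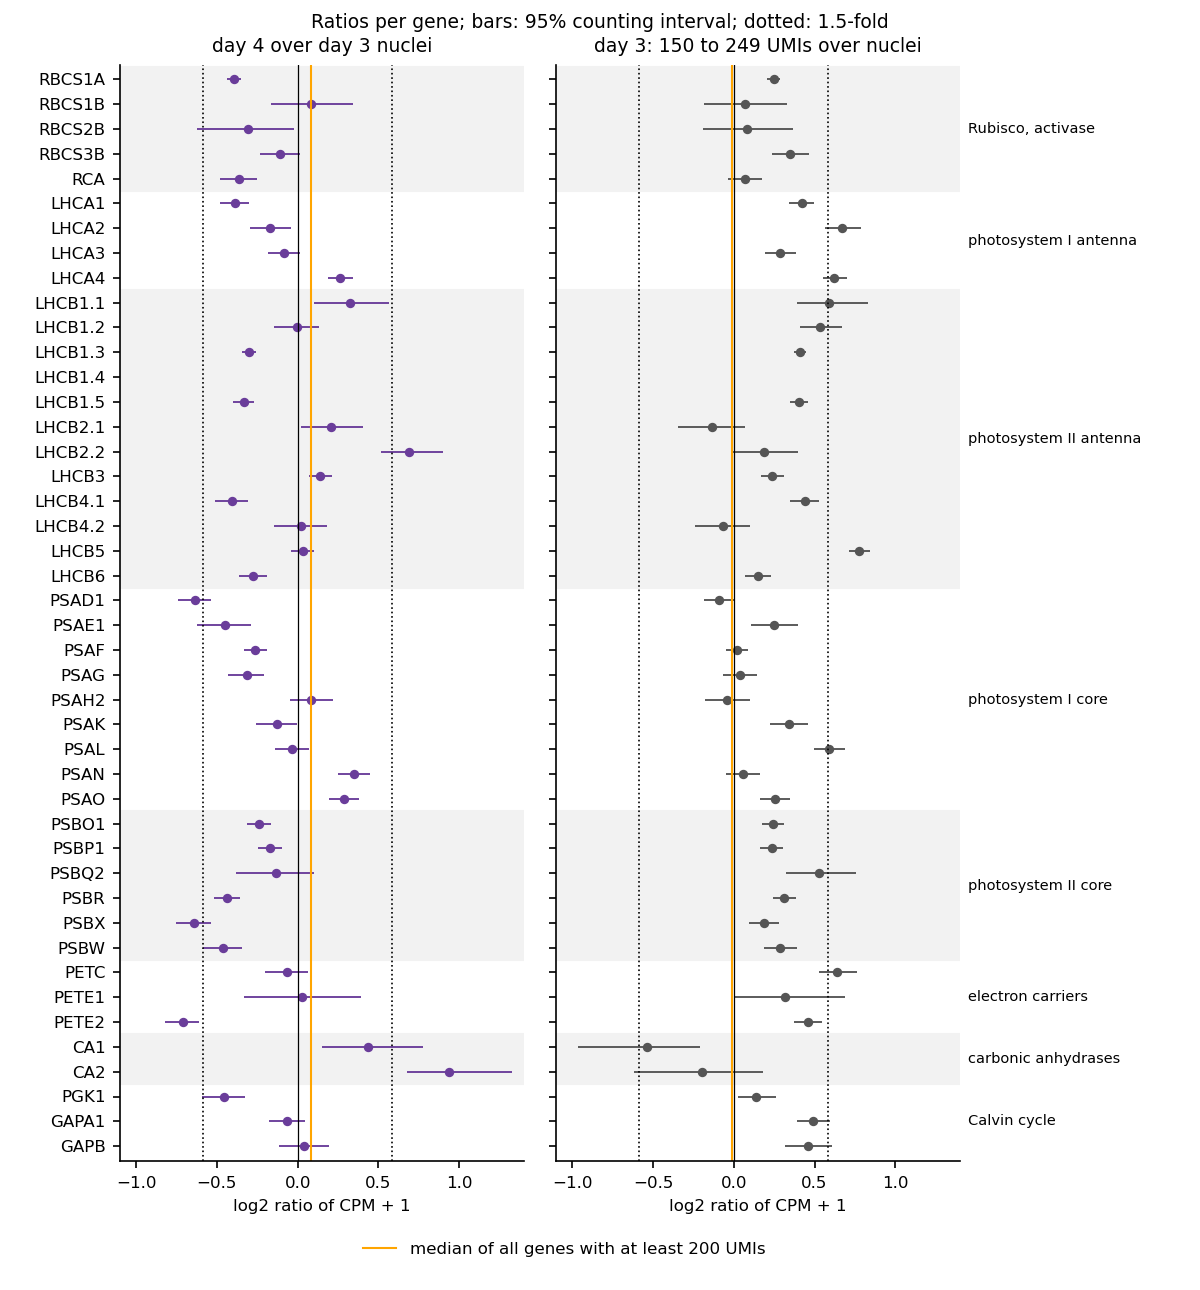
Log2 ratio (x axis) of each of the 43 genes with at least 200 UMIs (rows, by role) between day 4 and day 3 nuclei (left) and between day 3 barcodes of 150 to below 250 UMIs and day 3 nuclei (right), with counting intervals as bars, dotted lines at 1.5-fold and a line at the median of all genes. In the left panel CA2 and LHCB2.2 lie past the dotted line right of 0 and PETE2, PSBX and PSAD1 past the one left of 0. In the right panel 6 genes lie past the right dotted line and none past the left.

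By role, the 6 photosystem II subunit genes all lay below 0, with a summed level of 968 CPM at day 4 and 1224 CPM at day 3 (log2 ratio -0.34, -0.38 to -0.30). The most abundant of them was PSBO1 (AT5G66570), of the oxygen-evolving complex, at 272 CPM at day 4 and 321 CPM at day 3. Rubisco and its activase summed to 926 CPM at day 4 and 1182 CPM at day 3 (-0.35), and RBCS1A alone was at -0.39 (-0.44 to -0.35). Rubisco activase itself, RCA (AT2G39730), was at -0.36. The electron carriers summed to 212 CPM at day 4 and 288 CPM at day 3 (-0.44), most of it PETE2.

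The antenna genes divided by gene. The 12 photosystem II antenna genes summed to 2356 CPM at day 4 and 2645 CPM at day 3 (-0.17), with 7 above 0 and 5 below. LHCB1.3 (-0.30), LHCB1.5 (-0.33) and LHCB4.1 (-0.41) were on the lower side. LHCB3 (AT5G54270), whose protein sits in the outer trimers, was at 312 CPM at day 4 and 283 CPM at day 3 (0.14). The 4 photosystem I antenna genes summed to 685 CPM at day 4 and 712 CPM at day 3 (-0.06), but LHCA1 was at -0.39 whereas LHCA4 (AT3G47470), its partner in the antenna dimer, was at 276 CPM at day 4 and 230 CPM at day 3 (0.26, 0.19 to 0.34).

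The 9 photosystem I subunit genes summed to 1236 CPM at day 4 and 1335 CPM at day 3 (-0.11). PSAF (AT1G31330), which helps dock plastocyanin, was the most abundant at 271 CPM at day 4 and 325 CPM at day 3 (-0.26), and PSAN (0.35) and PSAO (0.29) were the highest of the group in ratio. The 3 Calvin cycle genes summed to 263 CPM at day 4 and 296 CPM at day 3 (-0.17). Their most abundant gene, GAPA1 (AT3G26650), a chloroplast glyceraldehyde-3-phosphate dehydrogenase subunit, was at 122 CPM at day 4 and 127 CPM at day 3 (-0.06), and PGK1, a phosphoglycerate kinase, was at -0.46. The 2 carbonic anhydrases were the only role that was higher in sum at day 4, at 41.7 CPM against 25.3 CPM at day 3 (0.72, 0.50 to 0.94). Few nuclei carried this sum, and the counting interval does not cover that. For CA2, 10 nuclei held 144 of 226 UMIs at day 4 and 80 of 123 at day 3. The share of nuclei with any UMI was 1.12% at day 4 and 0.98% at day 3 for CA2, and 1.65% and 1.55% for CA1. CA1 (AT3G01500) was at 19.5 CPM at day 4 and 14.2 CPM at day 3 (0.44, 0.15 to 0.77).

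From 1000 UMIs on, the difference between the days followed the depth of the barcode. Among barcodes of 600 to below 1000 UMIs the 44 genes summed to 7059 CPM at day 4 and 7103 CPM at day 3, a log2 ratio of -0.01. At 1000 to below 1500 UMIs the ratio was on the other side of 0, with 6662 CPM at day 4 and 6489 CPM at day 3 (0.04, 0.01 to 0.07). It was -0.14 at 2000 to below 3000 UMIs and -0.25 at 3000 to below 5000 UMIs. At 5000 UMIs and more the sum was 7077 CPM at day 4 and 9387 CPM at day 3 (-0.41, -0.44 to -0.37), from 190 and 337 barcodes. The day 4 level lay between 6575 and 7656 CPM in all bins, whereas the day 3 level was higher in each deeper bin from 1000 to below 1500 UMIs on. When each nucleus was thinned to 1000 UMIs, so that deep nuclei weigh no more than others, the ratio of the sum was -0.12.

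**Figure D3:**
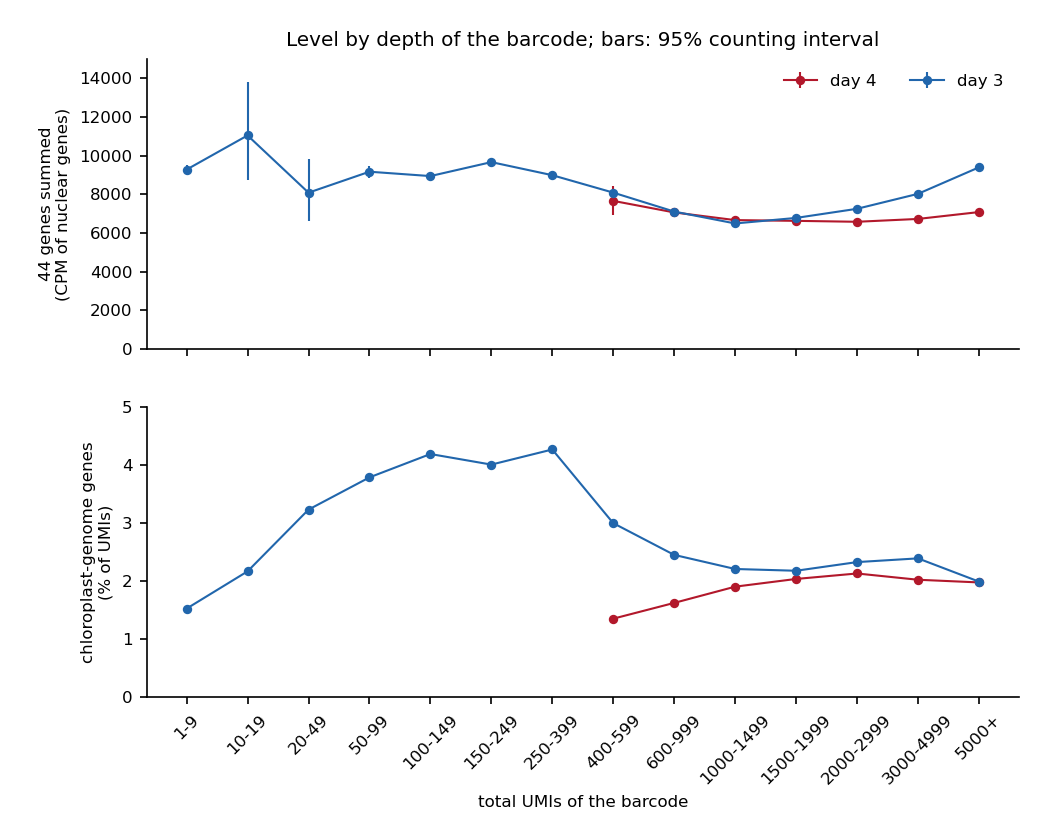
Summed level of the 44 genes in CPM and share of UMIs from the chloroplast genome in percent, by total UMIs of the barcode (bins along the x axis), at day 4 and day 3. The day 4 files start at 400 UMIs. The days lie close together from 600 to below 2000 UMIs and apart at 5000 and more, and the day 3 level is 9659 CPM at 150 to below 250 UMIs.

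The day 3 table also holds barcodes far below the depth of a nucleus, and 54130 of them had 150 to below 250 UMIs. Barcodes of few UMIs are commonly read as droplets that hold free RNA in place of a nucleus, and what these were was not tested. They had a mean of 186 nuclear UMIs, of which 1.79 came from the 44 genes. The summed level was 9659 CPM in these barcodes (97075 UMIs, 9599 to 9720), against 7707 CPM in day 3 nuclei, a log2 ratio of 0.33 (0.31 to 0.34). The median gene of the 44 was at 0.25, against -0.01 over all 14479 genes with at least 200 UMIs, and 37 of the 44 lay above 0. Day 4 has no such value, since its files hold no barcode below 400 UMIs.

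In the low barcodes 6 of the 43 genes with at least 200 UMIs were at least 1.5-fold higher than in nuclei, beside 2.85% of all genes, and none was 1.5-fold lower, beside 9.03% of all genes. LHCB5 (AT4G10340), a minor antenna protein of photosystem II, was at 502 CPM in low barcodes and 293 CPM in nuclei (5048 and 3245 UMIs), a log2 ratio of 0.78 (0.71 to 0.84). LHCA2 (AT3G61470) was at 161 CPM in low barcodes and 101 CPM in nuclei, a log2 ratio of 0.67 (0.57 to 0.79). LHCA4 was at 354 CPM in low barcodes and 230 CPM in nuclei (0.62, 0.55 to 0.70). These include 2 of the 4 photosystem I antenna genes, and that whole group summed to 1008 CPM in low barcodes and 712 CPM in nuclei (0.50). PETC (AT4G03280), the Rieske protein of the cytochrome b6f complex, was at 143 CPM in low barcodes and 91.8 CPM in nuclei (0.64, 0.53 to 0.76). PSAL (AT4G12800), a photosystem I subunit, was at 207 CPM in low barcodes and 138 CPM in nuclei (0.59, 0.49 to 0.69). LHCB1.1 (AT1G29920) was at 39.8 CPM in low barcodes and 26.1 CPM in nuclei (0.59, 0.39 to 0.83), and it is a close copy of LHCB1.3. Set against nuclei of at least 1500 genes, 1 gene passed the limit in place of 6, and with barcodes of 250 to below 400 UMIs, 2 did. No share of all genes is given for these settings.

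LHCB1.3 and RBCS1A, the most abundant genes, were nearer to 0 than the genes past the limit, but LHCB1.3 lay above the median of the 44 (0.25). LHCB1.3 was at 1344 CPM in low barcodes and 1013 CPM in nuclei (0.41, 0.37 to 0.45). RBCS1A was at 1070 CPM in low barcodes and 902 CPM in nuclei (0.25, 0.21 to 0.29). PSAF was at 330 CPM in low barcodes and 325 CPM in nuclei (0.02), and PSAD1 was at 171 CPM in low barcodes and 182 CPM in nuclei (-0.09). All 5 genes of Rubisco and its activase, all 6 photosystem II subunits, all 3 carriers and all 3 Calvin cycle genes lay above 0. Both carbonic anhydrases lay below it, at 9.45 CPM in low barcodes and 14.2 CPM in nuclei for CA1 (-0.54, -0.97 to -0.21) and 9.55 CPM in low barcodes and 11.1 CPM in nuclei for CA2 (-0.20, -0.62 to 0.18). Below 0 were also LHCB1.4, LHCB2.1, LHCB4.2, PSAD1 and PSAH2, each by 0.14 or less. PETE2 and PSBX, lower at day 4, were at 0.46 and 0.19 in low barcodes.

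Other values moved with the low barcodes. The chloroplast genome gave 4.01% of UMIs at 150 to below 250 UMIs, against 2.21% at 1000 to below 1500 UMIs and 1.99% at 5000 and more. Of 19 cytosolic translation genes (ribosomal proteins and elongation factors), all 19 lay above 0, with a median log2 ratio of 0.31. Of these, 2 were past 1.5-fold, beside 2.85% of all genes. The median of 7 cytosolic housekeeping genes was 0.33. The cell type lists had medians of -0.23 for epidermis, -0.22 for procambium, -0.25 for phloem, -0.24 for xylem, -0.61 for cortex and -0.29 for mesophyll. Of the 5 cortex markers, 3 were at least 1.5-fold lower in low barcodes, beside 9.03% of all genes. The medians were 0.03 for floral meristem, -0.0024 for S phase, 0.01 for G2/M and -0.04 for guard cell lineage markers, with G2/M at -0.69 and guard cell lineage at -0.78 in sum. The part of free cytosolic or plastid RNA in the levels of the 44 genes was not tested. At 20 to 49 UMIs the ratio of the sum was 0.068, from 103 UMIs of the 44 genes.

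To place the genes in tissues, the nuclei of both libraries were clustered together with the 44 genes and the other photosynthesis, chlorophyll and photorespiration genes left out, 129 in all, so that the levels compared did not form the clusters. Of 10 clusters, cluster 0 had 4 of 5 cortex and 2 of 5 mesophyll markers at least 2-fold above other nuclei and is called cortex-like. Its leading genes were AT5G42530, AT3G22142 and AT5G22460, none of them a marker of the lists. Clusters 1 and 9 were vascular-like (xylem 7 of 8 and procambium 6 of 7 markers, and phloem 3 of 10), clusters 2 and 7 epidermis-like (6 of 8 each), clusters 3 and 5 G2/M-like (7 and 11 of 14) and clusters 6 and 8 S phase-like (10 and 11 of 14). Cluster 4 had 6 of 9 floral meristem markers, but transport and detoxification genes (ABCB4, ABCB11, UGT74E2) led it.

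The cortex-like cluster had the highest summed level of the 44 genes, at 10749 CPM at day 4 (1032 nuclei) and 11993 CPM at day 3 (796 nuclei). At this resolution it was the only cluster above the low barcodes of day 3 (9659 CPM). At the finer resolution of 0.08, 282 day 3 nuclei of the vascular-like cluster 1 that matched no marker list were at 9939 CPM. Another finer cluster from cluster 1, with xylem as its best marker list, was at 5728 CPM at day 3 (354 nuclei). In cluster 2, 467 day 3 nuclei were at 10038 CPM. The highest finer cluster at day 3, at 12785 CPM, came from cluster 0 and matched no list either. The lowest sums were in cluster 8, at 4583 CPM at day 4 and 5185 CPM at day 3, which besides its S phase markers had 5 of 8 epidermis and 2 of 3 guard cell lineage markers at least 2-fold up. The other S phase-like cluster, cluster 6, had none of the epidermis markers up and was at 6424 CPM at day 4 and 6504 CPM at day 3. At day 4 the sum was between 5064 and 7038 CPM in the other clusters. At day 3 it was between 5333 and 9219 CPM, with the epidermis-like cluster 2 at the top. By single gene, cluster 0 held the highest level for 40 of the 44 genes at day 4 and for 32 at day 3, and cluster 8 the lowest for 19 at each day.

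**Figure D4:**
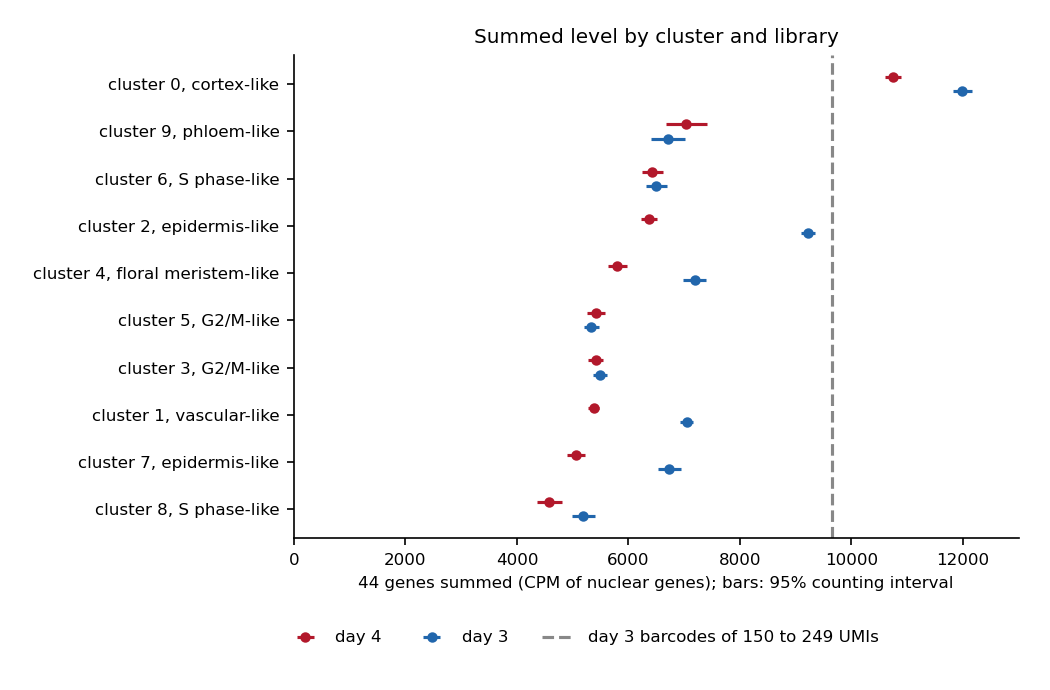
Summed level of the 44 genes in each of the 10 clusters (rows) at day 4 and day 3 (x axis, CPM; bars cover counting error), with the level of day 3 barcodes of 150 to below 250 UMIs as a dashed line. Cluster 0, cortex-like, is the only one to the right of the dashed line, at 10749 CPM at day 4 and 11993 CPM at day 3.

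The ratio between the days varied with the cluster. The log2 ratio of the sum, day 4 over day 3, was -0.02 in cluster 3, 0.02 in cluster 5 and -0.02 in cluster 6, with intervals that include 0. It was -0.16 (-0.19 to -0.13) in the cortex-like cluster, -0.18 in the cycling cluster 8, -0.39 in cluster 1 and -0.41 in cluster 7. It was -0.31 in cluster 4 and 0.07 (-0.03 to 0.17) in the phloem cluster 9, which is not a cycling one. The ratio farthest from 0 was in cluster 2, at 6365 CPM at day 4 and 9219 CPM at day 3 (-0.53, -0.57 to -0.50). A finer clustering (resolution 0.08) divided it into a pair of clusters. The one with epidermis as its best marker list held 407 nuclei at 5971 CPM at day 4 and 197 nuclei at 5898 CPM at day 3, and the one with floral meristem as its best list held 169 nuclei at 7331 CPM at day 4 and 467 nuclei at 10038 CPM at day 3. In the last of these the median nucleus had 1654 UMIs at day 4 and 2510 at day 3.

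Genes past the limit at the lower side were also apart in cluster 2. PETE2 was at 137 CPM in cluster 2 at day 4 and 321 CPM at day 3, and at 140 CPM at day 4 and 205 CPM at day 3 in the cortex-like cluster. PSBX was at 125 CPM in cluster 2 at day 4 and 273 CPM at day 3. At day 3 cluster 2 held the highest level of 10 genes: PSAE1, PSAG, PSAK, PSAL, PSBR, PSBX, PSBW, PETC, PETE2 and PGK1. At day 4 it was the highest for none.

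In the cortex-like cluster the sum was 10749 CPM at day 4, against 5641 CPM in all other nuclei of that day, a log2 ratio of 0.93 (0.91 to 0.95). At day 3 it was 11993 CPM, against 6967 CPM in other nuclei, a log2 ratio of 0.78 (0.76 to 0.81). At day 4, 38 of the 40 genes with at least 200 UMIs were at least 1.5-fold higher in cortex-like nuclei, beside 9.44% of all genes. At day 3, 28 of 40 were, beside 11.0% of all genes, and at neither day was one of them 1.5-fold lower. Some of the genes counted reached 200 UMIs only with the cortex-like side. These were RBCS1B, LHCB1.1, PSBQ2 and CA2 at day 4, and RBCS1B and RBCS2B at day 3. PETE2 (0.41) and PGK1 (0.45) were the 2 not past the limit at day 4. For comparison, the cortex markers stood at 1.84 at day 4 and 1.66 at day 3, and the mesophyll markers at 1.06 and 0.82, but the clustering used these markers and they gave the cluster its name. The chloroplast genome gave 2.1% of UMIs in the cortex-like cluster at day 4, within the 1.61 to 2.45% of the other clusters, and 2.75% at day 3, against 1.68 to 2.33%.

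**Figure D5:**
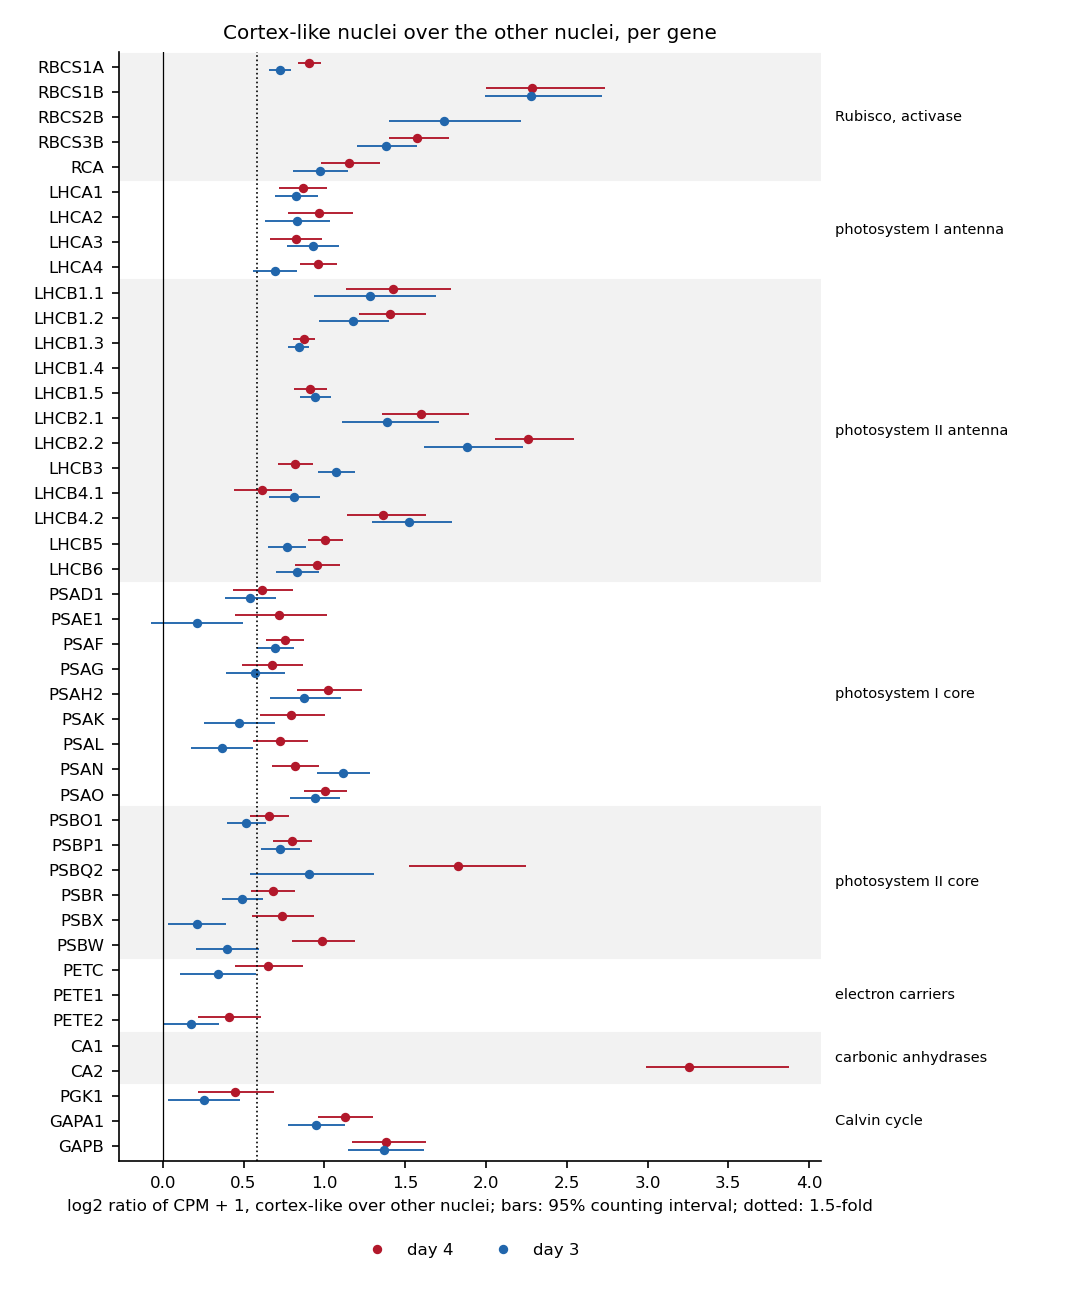
Log2 ratio of each gene with at least 200 UMIs between cortex-like and other nuclei, at day 4 and day 3 (rows, by role; x axis, log2 ratio of CPM + 1; bars, counting intervals; dotted line, 1.5-fold). All points lie right of 0, and PETE2 is at 0.41 at day 4 and 0.18 at day 3.

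The genes with the largest ratios were low in other nuclei. CA2 was at 79.4 CPM in cortex-like and 7.40 CPM in other nuclei at day 4, a log2 ratio of 3.26 (2.99 to 3.87), and it reached 200 UMIs only through the cortex-like side (166 and 60 UMIs), with 63.7% of its UMIs in 10 nuclei. At day 3 CA2 was at 34.3 CPM in cortex-like and 7.09 CPM in other nuclei (2.13), from fewer than 200 UMIs. RBCS1B (AT5G38430) was at 69.8 CPM in cortex-like and 13.6 CPM in other nuclei at day 4 (2.28), and at 75.3 CPM in cortex-like and 14.7 CPM in other nuclei at day 3 (2.28). It too reached 200 UMIs only with the cortex-like side (146 and 110 UMIs at day 4, 123 and 139 at day 3). LHCB2.2 was at 151 CPM in cortex-like and 30.7 CPM in other nuclei at day 4 (2.26), and at 91.3 CPM in cortex-like and 24.0 CPM in other nuclei at day 3 (1.88). The abundant genes had smaller ratios. RBCS1A was at 1092 CPM in cortex-like and 582 CPM in other nuclei at day 4 (0.91), and at 1359 CPM in cortex-like and 823 CPM in other nuclei at day 3 (0.72). LHCB1.3 was at 1288 CPM in cortex-like and 702 CPM in other nuclei at day 4 (0.87), and at 1625 CPM in cortex-like and 907 CPM in other nuclei at day 3 (0.84).

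By role, the log2 ratio of the sum in cortex-like over other nuclei was 2.90 at day 4 and 1.69 at day 3 for the carbonic anhydrases, 1.09 and 0.88 for Rubisco with its activase, and 1.01 and 0.83 for the Calvin cycle genes. It was 0.98 and 0.93 for the photosystem II antenna, and all 11 antenna genes of photosystem II with enough UMIs passed 1.5-fold at each day. Of all genes, 9.44% did so at day 4 and 11.0% at day 3. LHCB1.1 had enough UMIs at day 4 only with the cortex-like side (139 UMIs in cortex-like and 196 in other nuclei). The photosystem subunits were closer to other nuclei, at 0.81 and 0.69 for photosystem I and 0.78 and 0.52 for photosystem II. At day 4 all 9 photosystem I and all 6 photosystem II subunit genes passed the limit, beside 9.44% of all genes. At day 3, 4 of 9 and 2 of 6 did, beside 11.0% of all genes. PSBQ2 had enough UMIs at day 4 only with the cortex-like side (127 UMIs in cortex-like and 133 in other nuclei). The carriers were lowest, at 0.58 at day 4 and 0.26 at day 3.

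Within families, the shares of the copies differed between cortex-like and other nuclei, but by less for LHCB1 than for RBCS, LHCB4 and LHCB2. LHCB1.3 gave 62.5% of LHCB1 UMIs in cortex-like and 65.3% in other nuclei at day 4, and 63.5% in cortex-like and 66.0% in other nuclei at day 3. RBCS1A gave 77.2% of RBCS UMIs in cortex-like nuclei (75.7 to 78.7) and 87.0% in other nuclei (86.1 to 87.9) at day 4, and 79.9% in cortex-like and 88.1% in other nuclei at day 3. LHCB4.2 (AT3G08940) gave 39.5% of the UMIs of the 2 LHCB4 genes in cortex-like and 27.7% in other nuclei at day 4, and 32.9% in cortex-like and 22.9% in other nuclei at day 3. LHCB2.2 gave 60.4% of LHCB2 UMIs in cortex-like and 48.9% in other nuclei at day 4, and 51.9% in cortex-like and 43.1% in other nuclei at day 3, with the copies nearly alike in sequence. The low barcodes of day 3 were near the nuclei of day 3 for the RBCS family (85.9% RBCS1A) and apart for LHCB4 (19.4% LHCB4.2 in low barcodes, against 25.5% in nuclei).

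Most nuclei held UMIs of the set, whatever their cluster. With every nucleus thinned to 1000 nuclear UMIs, 97.9% of day 4 nuclei (97.5 to 98.3) and 97.95% of day 3 nuclei (97.5 to 98.4) had at least 1 UMI of the 44 genes, and 99.7% had one at each day without thinning. In the thinned nuclei the mean was 6.61 UMIs a nucleus at day 4 and 7.17 at day 3, with a median of 6 at each day. The variance there was 4.35 and 5.51 times the mean. With means of this size, at least 1 UMI in most nuclei is nearly fixed in advance. The share with a UMI of the set therefore does not show in which clusters the genes are active. RBCS1A was found in 43.2% of thinned nuclei at day 4 and 47.4% at day 3. At day 4 it was in 59.1% of cortex-like nuclei, against 35.7% in the G2/M-like cluster 3 and 30.6% in the S phase-like cluster 8. At day 3 it was in 63.7% of cortex-like nuclei, against 34.8% in cluster 3 and 40.8% in cluster 8. Free RNA can give such UMIs in any nucleus, and its part in these shares was not tested.

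The carbonic anhydrases were concentrated in few nuclei. The 10 nuclei with the most CA2 UMIs held 63.7% of them at day 4 and 65.0% at day 3, and only 51 day 4 and 43 day 3 nuclei had any. For CA1 the 10 highest nuclei held 46.7% at day 4 and 43.9% at day 3, and for RBCS1B 32.4% at day 4 and 26.3% at day 3. RBCS1A was spread, with 3.47% at day 4 and 6.28% at day 3 in its 10 highest nuclei. The 10 highest CA2 nuclei included 7 of the 10 highest for CA1 at day 4 and 4 at day 3. The 44 genes made up a median of 3.96% of UMIs in these CA2 nuclei at day 4 and 3.21% at day 3, against 0.568% and 0.582% in all nuclei. These nuclei were picked by their CA2 UMIs and the share includes CA2, so a part of the excess is fixed by the choice. Of the 226 CA2 UMIs at day 4, 144 came from these 10 nuclei, and of the 123 at day 3, 80 did.

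Other genes of the pathway were taken from lists. Of 17 chlorophyll synthesis genes, 16 had 200 UMIs, 1 was 1.5-fold higher at day 4 and none lower, with a median log2 ratio of 0.00. The one past the limit was CAO, which makes chlorophyll b, at 35.0 CPM at day 4 and 20.7 CPM at day 3 (0.73), beside a background of 4.36% of all genes higher and 3.30% lower. The most abundant over both days was CHLP, which makes the phytol chain of chlorophyll, at 229 CPM at day 4 and 213 CPM at day 3. Of 35 further photosynthesis genes, 32 had 200 UMIs, 1 was higher and 2 lower, with a median of -0.18. The lower ones were both ferredoxins, FD1 at 36.0 CPM at day 4 and 76.8 CPM at day 3 (-1.07) and FD2 at 95.9 CPM at day 4 and 161 CPM at day 3 (-0.74). The higher one was PSBO2 (0.80), and the most abundant, ATPF2 of the plastid ATP synthase, was at 371 CPM at day 4 and 369 CPM at day 3. Of 20 regulators, such as plastid sigma factors, 17 had 200 UMIs and 1, SIG4 (0.72), was higher, with a median of 0.16, and SIG3 was the most abundant at 100 CPM at day 4 and 93.7 CPM at day 3.

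The photorespiration list was on the other side of 0 from the 44 genes. Of its 13 genes, 12 had 200 UMIs, with a median of 0.25. GOX1 (0.60) and SGAT (0.59) were past the limit at the higher side, beside 4.36% of all genes. The catalase gene CAT2 (-0.61) was past it at the lower side, beside 3.30% of all genes. In cortex-like over other nuclei this list was at 0.97 in sum at day 4 and 0.99 at day 3, near the 44 genes, and chlorophyll synthesis was at 0.62 and 0.53. Of the 19 cytosolic translation genes, all 19 were below 0 between the days (median -0.44). Of these, 6 were at least 1.5-fold lower at day 4, beside 3.30% of all genes. EF1A was the most abundant at 857 CPM at day 4 and 1481 CPM at day 3 (-0.79). That list stood at -0.14 in cortex-like over other nuclei at day 4 and -0.50 at day 3. The part of these cytosolic genes in the values of the 44 genes was not tested.

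Across the 20 combinations of cluster and library, the pattern of the sum was followed best within the set by LHCB1.3 (Pearson r = 0.95) and PSBP1 (0.93), and least by LHCB1.4 (0.33) and PSAN (0.60). Of 14520 genes outside the lists with at least 200 UMIs, the most alike were AT4G16410 (0.87), ALP (0.85), ELP (0.85), AT2G43530 (0.84), HOT5 (0.84), THI1 (0.84), CWLP (0.84), LCR69 (0.84), AT5G13140 (0.83) and RAP2.2 (0.83). The 20 points share 2 libraries and a single clustering, so these values are descriptions only.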

How the data were processed

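The files hold UMI counts per gene and barcode that the authors deposited unnormalized, made with Cell Ranger 3.1.0 per the submitters' processing notes and, per the study's methods, counted on Araport11 genes, and the genome sequence used was not given in the sources used here. The day 4 tables hold 7716 barcodes and 13590463 UMIs, and those of day 3 hold 652188 barcodes and 31908972 UMIs. Nuclei had at least 1000 nuclear genes, CPM left organelle genes out, and ratios used a pseudocount of 1 CPM. Intervals of ratios were exact conditional binomial without a pseudocount, those of CPM exact Poisson and those of shares Clopper-Pearson. A call meant 1.5-fold and 200 UMIs. Clusters were made in R 4.3.3 (Seurat 5.3.0, uwot 0.2.3, sctransform 0.4.2) with parameters of the study's methods. These were 3000 variable genes, 9 components, UMAP with 50 neighbours and resolution 0.04. The neighbour graph was built on the UMAP coordinates, with its other settings at default. Unlike in the study, both libraries were clustered together and the 129 photosynthesis, chlorophyll and photorespiration genes were left out. Scrublet in scanpy 1.11.5 marked 2 day 4 and 6 day 3 nuclei as doublets, too few to have worked, so leaving out the 8% highest scores (419 and 372 nuclei) was tried as an alternative. edgeR 4.0.16 gave TMM factors only, and numpy 2.4.6, scipy 1.17.1 and matplotlib 3.10.9 did the rest. The calculations were tested on simulated data.

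Genes named with all values are the most abundant of each role and those past 1.5-fold between the days or in low barcodes; for the lists, those past 1.5-fold between the days and the most abundant. The 10 most alike genes were ranked by correlation of log2 level. Families, single nuclei, UMI bins and further genes were described after their values were seen. Members, roles and lists were chosen with earlier results of these data known.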

Additional observations from a re-analysis of the deposited data

How the results depend on the processing

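The lower sum of the 44 genes at day 4 (log2 ratio -0.20) kept its direction under every alternative tried for it. It was -0.15 and -0.30 with a minimum of 500 and 1500 genes, -0.29 with TMM and -0.31 with median-of-ratios scaling, -0.22 without the 8% highest doublet scores, -0.12 when thinned to 1000 UMIs and -0.15 without the 3 most abundant genes. The scalings moved the median of all genes by -0.09 and -0.11. Of the depth bins of barcodes, which were not among these alternatives, only that of 1000 to below 1500 UMIs lay above 0 (0.04, 0.01 to 0.07). The ratio was -0.01 at 600 to below 1000 UMIs, -0.03 at 1500 to below 2000 and -0.41 at 5000 and more. The count past 1.5-fold between the days, 5, was 3 with a minimum of 500 genes, 9 with 1500 and 1 when thinned. When thinned, LHCB2.2 (0.79) was past the limit and CA2 (0.84) had fewer than 200 UMIs. PSAD1 (-0.51), PSBX (-0.48) and PETE2 (-0.38) were then within it. The share of all genes past the limit is given only for the main settings (4.36% higher, 3.30% lower). The other counts therefore have no background beside them.

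The ratio of the sum in low barcodes over nuclei (0.33) was 0.068 with barcodes of 20 to 49 UMIs, 0.22 with 250 to below 400 UMIs, 0.37 and 0.23 with a minimum of 500 and 1500 genes, 0.39 with TMM scaling and 0.31 without close copies. The count past 1.5-fold, 6, was 2 with 250 to below 400 UMIs, 1 with a minimum of 1500 genes and 9 with 20 to 49 UMIs. It was 7 with a minimum of 500 genes and with TMM scaling, 5 without close copies and 4 with a pseudocount of 10 CPM. Here too the share of all genes past the limit (2.85% higher) is given only for the main settings. At 20 to 49 UMIs, LHCA2 (-0.36), LHCB1.1 (-4.76), LHCB5 (-0.90) and PSAL (-0.80) turned to the other side of 0, in a set with 103 UMIs of the 44 genes.

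Cortex-like over other nuclei, 0.93 at day 4 and 0.78 at day 3, was 0.90 and 0.76 with all genes in the clustering. It was 0.88 and 0.71 at resolution 0.08, 0.89 and 0.88 when thinned, and, at day 3, 0.74 without the highest doublet scores and 0.82 with each library clustered alone. At resolution 0.08, a finer cluster of 313 nuclei, 312 from cluster 0, matched no marker list and counted among other nuclei. Its sum was 10883 CPM at day 4 and 12785 CPM at day 3. Subtracting a low-barcode profile scaled to the chloroplast share gave 2.66 and 2.07, but removed 40.1 to 68.6% of UMIs of a cluster and at day 4 left levels below 0 in cluster 3 (-1283 CPM) and cluster 8 (-1078 CPM), so these ratios are not usable as folds. Subtracting the mean low barcode, an alternative chosen after seeing the data, gave 1.04 and 0.85. Both subtractions took the low barcodes of day 3, also for day 4, whose files hold no such barcodes. The day 4 ratios thus rest on the profile of another library. The share of nuclei with a UMI of the set, nearly fixed by the mean level of the set, was 99.7% at each day without thinning. The causes of these shifts were not tested. Of the sums, counts and shares under the alternatives, 32 were marked as moved and 20 as the same. Of the ratios of single genes, 80 moved by less than their interval, 18 by more and 4 changed side. Many of the 80 could not move. Leaving out close copies or the 3 most abundant genes, or a minimum of 100 UMIs, does not alter the ratio of a single gene. No paired analysis was possible because each day has 1 library. Depth limits LHCB1.4, with 54 UMIs, and the carbonic anhydrases.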
